A study of Mus musculus with 20 samples.

Results

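The 44 genes described here act in mitosis, the division of the chromosomes, and in cytokinesis, the division of the cell body. They were taken by name from a fixed list. The deposited count files held all 44 among 55367 genes, 43 under the listed symbol and Sgol1 under its current symbol Sgo1. All 44 were among the 16598 genes that passed the filter on low counts, with a smallest count of 258 in any library.

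RNA of the left atrium and of the left ventricle came from C57BL/6J mouse pups kept in 21% oxygen (room air) or 100% oxygen (hyperoxia) after birth and sampled on postnatal day 4. There were 4 groups of 5 mice, with 1 library per mouse in each: room-air atrium, hyperoxic atrium, room-air ventricle and hyperoxic ventricle. In all groups the nursing dams were moved daily between the gas mixtures. Libraries were numbered within a group, the hyperoxic ventricles as 1, 2, 4, 5 and 6, and the labels do not say whether an atrium and a ventricle of 1 number came from the same mouse.

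A cell enters mitosis when cyclins A and B activate the kinase Cdk1, and the kinetochores on each chromosome then attach to the spindle under the watch of a checkpoint. The anaphase-promoting complex ends mitosis by marking cyclins and the guard of the chromatid glue for destruction, after which the central spindle and a contractile ring part the daughter cells. Mouse heart muscle cells leave the cell cycle in the first days after birth, often with nuclear division that is not followed by cytokinesis, while endothelial cells, fibroblasts and other cells of the heart go on dividing.

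Many genes of this kind are transcribed late in the cell cycle through promoters that carry CCAAT boxes, bound by NF-Y, and the cell cycle homology region (CHR), bound by the MuvB complex. RefSeq promoter windows of GRCm38.p6 were matched for 36 of the 44 genes, and the 250 bases before each start were searched on both strands for CCAAT and for the CHR as TTTGAA or TTCGAA; matches that shared a base were each counted. CCAAT was found in 26 of the 36 windows (72.2%), against 34.5% of the 27025 windows of all genes. At least 2 CCAAT matches stood in 17 windows (47.2%, against 10.5%), and a CHR match in 11 (30.6%, against 17.4%, or 12.4% of the windows of tested genes). The 200 bases before the start of 6 named genes follow, 5′ to 3′ on the strand of the gene, with matches in capitals; ATTGG and TTCAAA are the matches on the other strand. These 6 were chosen after the matches had been seen, to show the range among the genes named here, and because their windows hold little or no annotated exon.
Cdk1: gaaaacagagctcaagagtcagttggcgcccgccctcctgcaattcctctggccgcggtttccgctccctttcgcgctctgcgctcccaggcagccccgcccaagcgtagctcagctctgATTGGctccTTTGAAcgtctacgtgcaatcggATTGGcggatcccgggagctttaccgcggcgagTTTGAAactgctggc
Cdc20: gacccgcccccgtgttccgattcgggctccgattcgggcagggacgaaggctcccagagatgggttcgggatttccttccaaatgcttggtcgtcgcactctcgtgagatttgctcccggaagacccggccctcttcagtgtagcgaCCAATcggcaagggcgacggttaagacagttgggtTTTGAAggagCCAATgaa
Mki67: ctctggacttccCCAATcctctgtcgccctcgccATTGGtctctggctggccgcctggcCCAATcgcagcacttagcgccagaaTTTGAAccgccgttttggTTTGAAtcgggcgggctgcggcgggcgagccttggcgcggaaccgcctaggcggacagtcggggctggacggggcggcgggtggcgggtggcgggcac
Top2a: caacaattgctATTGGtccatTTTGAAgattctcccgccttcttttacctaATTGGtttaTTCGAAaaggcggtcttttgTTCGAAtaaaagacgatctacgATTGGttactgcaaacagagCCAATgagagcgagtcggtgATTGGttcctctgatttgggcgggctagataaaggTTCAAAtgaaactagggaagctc
Cenpf: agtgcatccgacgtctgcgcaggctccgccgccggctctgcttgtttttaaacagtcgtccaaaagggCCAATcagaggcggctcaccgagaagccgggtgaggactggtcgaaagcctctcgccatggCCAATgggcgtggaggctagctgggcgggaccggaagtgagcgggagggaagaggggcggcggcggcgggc
Birc5: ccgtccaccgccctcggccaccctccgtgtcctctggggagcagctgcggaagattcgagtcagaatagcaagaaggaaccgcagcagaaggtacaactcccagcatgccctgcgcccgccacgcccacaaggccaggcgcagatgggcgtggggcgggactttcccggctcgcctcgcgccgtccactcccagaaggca
The windows lie at chr10:69352913-69353112 (minus strand) for Cdk1, chr4:118437344-118437543 (minus) for Cdc20, chr7:135716380-135716579 (minus) for Mki67, chr11:99024190-99024389 (minus) for Top2a, chr1:189688087-189688286 (minus) for Cenpf and chr11:117849037-117849236 (plus) for Birc5. Top2a, which encodes the topoisomerase that untangles sister chromatids, held 5 CCAAT and 4 CHR matches in these 200 bases. Mki67 held 3 CCAAT and 2 CHR matches, Cdk1 2 of each, Cdc20 2 CCAAT and 1 CHR, and Cenpf 2 CCAAT and 0 CHR. Birc5 held 0 of either, which says only that these letters are not in this window. A match is a description of the letters and not a measured binding site.

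Total counts were 26510081 to 38244117 per library. Levels are CPM, counts scaled to the same normalised library size and so comparable between libraries. The chamber labels fit their markers: the atrial light chain Myl7 averaged 7010 ± 837 CPM (SD, n = 5) in room-air atria, and the ventricular light chain Myl2 20400 ± 5310 CPM in room-air ventricles. Some ventricles held traces of atrial signal, with Myl7 at 19.5 to 530 CPM in room air and 2.66 to 128 CPM in hyperoxia, and Myl2 reached 328 CPM in room-air atrium 1 against 7.42 to 15 CPM in the other room-air atria. The groups differed in other ways too. Reads of 4 Y-linked genes outnumbered those of Xist in 5 of 5 libraries of each room-air group, in 1 of 5 hyperoxic atria and in 2 of 5 hyperoxic ventricles. The length slope of a library is negative where genes of short exon length take more of the reads than in the average library of that chamber. It was below -0.2 in 3 libraries. These were atria 2 (-0.29) and 4 (-0.283) of the hyperoxic pups and ventricle 4 (-0.22) of the room-air pups. The slope lay between -0.0691 and 0.133 elsewhere. These 3 libraries stand apart, so counts are also given without them and with the slope as a covariate.

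Summed over the 44 genes, the level was 2260 ± 228 CPM in room-air atria (range 1910 to 2430), 1980 ± 186 CPM in hyperoxic atria (1710 to 2230), 3010 ± 73.9 CPM in ventricles of room-air pups (2940 to 3130) and 3150 ± 105 CPM in those of hyperoxic pups (3000 to 3260). Every ventricle lay above every atrium, while the oxygen groups overlapped within each chamber. In bulk tissue, fewer dividing cells and less of these RNAs per cell cannot be told apart.

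**Figure D1:**
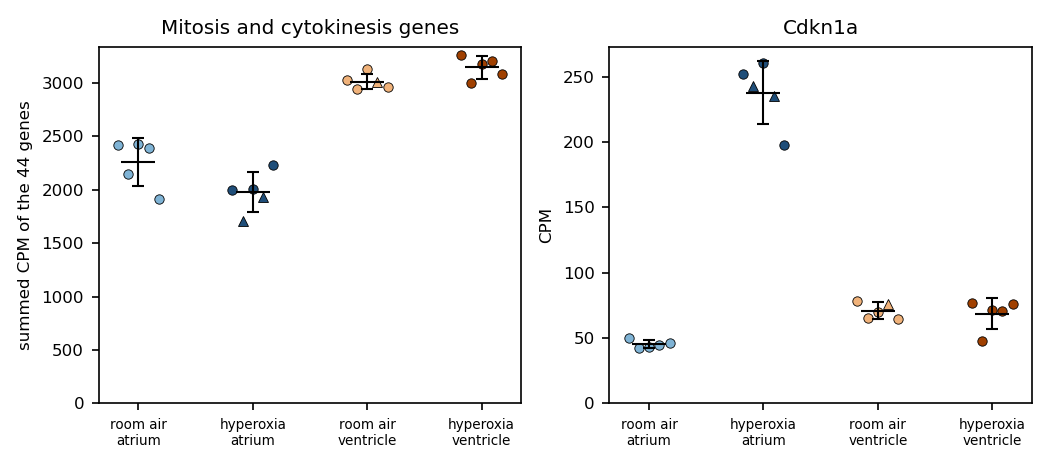
Summed CPM of the 44 genes (left) and CPM of the cell cycle inhibitor Cdkn1a (right) in each library of the 4 groups, with the mean and SD (n = 5) as bars; triangles mark the 3 libraries with a length slope below -0.2. All ventricles lie above all atria on the left (2940 CPM or more against 2430 CPM or less), and Cdkn1a is high only in hyperoxic atria, at 198 to 260 CPM.

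Divided by exon length, the levels spanned 2.86 to 44.4 CPM per kilobase in room-air ventricles. The highest were Ube2c, the ubiquitin-conjugating enzyme of the anaphase-promoting complex (44.4), the cyclins Ccnb2 (41.9) and Ccna2 (41), the complex's activator Cdc20 (40.9), the proliferation marker Mki67 (32.8) and Cdk1 (27.7). The levels of Ccnb2, Ccna2 and Cdc20 lay close together. The lowest was Espl1, the protease separase, at 2.86. In room-air atria the same scale ran from 2.56 for the phosphatase Cdc25c to 30.7 for Ccna2, and its median over the 44 genes was 8.28, against 11 in room-air ventricles, 7.18 in hyperoxic atria and 11.8 in hyperoxic ventricles. The median coefficient of variation between mice was 7.3% to 14.2% over the groups. Single genes varied more, up to 18.1% in room-air atria, 35.5% in hyperoxic atria (Foxm1), 22.4% in room-air ventricles and 22.1% in hyperoxic ventricles.

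The atrium and the ventricle were first compared in room air, which asks how the chambers differ in these genes on postnatal day 4. Of the 44 genes, 29 were lower in the atrium and 0 higher, and 15 missed the threshold (edgeR quasi-likelihood test, Benjamini-Hochberg adjusted p under 0.05). The median log2 difference was -0.32, 0.8-fold, and 43 of 44 values were below 0. Over all genes tested, 55.0% passed, 28.7% higher and 26.3% lower, with a median log2 difference of 0.03. Of the role groups, lower genes made up 4 of 4 in the chromosomal passenger complex, 9 of 11 at the kinetochore and checkpoint, 6 of 9 in mitotic entry, 2 of 3 in mitotic exit, 4 of 8 at the spindle, 3 of 7 in cytokinesis and 1 of the 2 chromosome and proliferation markers.

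Kinetochore genes held the value farthest from 0. Cenpa, the histone that marks the centromere (chromosome 5, 30666777 to 30674830, plus strand), stood at 67.8, 58.4, 61.6, 69.3 and 44.3 CPM in room-air atria 1 to 5 and at 127, 136, 124, 160 and 121 CPM in room-air ventricles 1 to 5. The groups did not overlap, and the log2 difference was -1.15 (SE 0.11, adjusted p = 1.7e-08), 2.22-fold lower in the atrium. The outer kinetochore gene Ndc80 was lower by log2 -0.70 (SE 0.09, adjusted p = 1.8e-06) and the checkpoint kinase Ttk by -0.55 (SE 0.09, adjusted p = 2.4e-05). The checkpoint kinase Bub1b and the kinetochore motor Cenpe were the 2 of this group that did not pass (adjusted p = 0.17 and 0.11).

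Mitotic exit and the passenger complex had the role medians farthest from 0, at -0.60 and -0.56, against -0.43 at the kinetochore and checkpoint. Ube2c (chromosome 2, 164769898 to 164778822, plus strand) stood at 62, 50.9, 53.2, 60.8 and 44.7 CPM in room-air atria 1 to 5 and at 118, 116, 103, 137 and 104 CPM in room-air ventricles 1 to 5, a log2 difference of -1.09 (SE 0.12, adjusted p = 1.7e-07) with no overlap. It shares exonic bases with the muscle gene Tnnc2 on the other strand, and the strand setting of the counting is not given in the sources used here, so reads of the pair may not be separable. Cdc20, which shares bases with Elovl1 in the same way, was lower by log2 -0.60 (SE 0.09, adjusted p = 9.5e-06). Of the passenger complex, which corrects faulty spindle attachments, survivin (Birc5) was lower by -0.92 (SE 0.16, adjusted p = 3.7e-05), borealin (Cdca8) by -0.71 (SE 0.09, adjusted p = 4.8e-07), the kinase Aurkb by -0.40 (SE 0.09, adjusted p = 6e-04) and the scaffold Incenp by -0.24 (SE 0.08, adjusted p = 0.014).

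Among genes of mitotic entry, Cdk1 (chromosome 10, 69335146 to 69352938, minus strand) stood at 93.1, 69.8, 80.2, 95.4 and 65.5 CPM in room-air atria 1 to 5, against 127, 136, 129, 165 and 126 CPM in room-air ventricles 1 to 5. All ventricles were higher, and the log2 difference was -0.76 (SE 0.12, adjusted p = 1.2e-05). Its partner Ccnb1 was lower by -0.62 (SE 0.08, adjusted p = 1.4e-06). Foxm1, the transcription factor that drives late cell cycle genes, differed by -0.13 (SE 0.19, adjusted p = 0.59) and the kinase Plk1 by -0.24 (SE 0.10, adjusted p = 0.051), and neither passed. Plk1 lay at the threshold and passed, lower, in 18 of 34 other settings. Mki67 was lower in the atrium by -0.58 (SE 0.11, adjusted p = 2e-04), while Top2a did not pass, at -0.09 (SE 0.10, adjusted p = 0.47).

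Cytokinesis genes had the role median closest to 0, at -0.24. Racgap1, a subunit of the centralspindlin complex of the midzone, was lower by log2 -0.30 (SE 0.09, adjusted p = 0.0052). Anln, the contractile ring scaffold anillin, stood at -0.01 (SE 0.14, adjusted p = 0.96), Ect2, the activator of the small GTPase RhoA, at -0.24 (SE 0.12, adjusted p = 0.095), and the midzone kinesin Kif20a, the only value of the 44 above 0, at 0.12 (SE 0.12, adjusted p = 0.41). With the library's length slope in the fit, 39 of the 44 genes passed, all lower, and without the 3 libraries with steep slopes 36 did. The slope is taken against each chamber's own mean, so it holds no overall length difference between the chambers and cannot adjust for one.

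The same chamber comparison in hyperoxic pups called 43 of 44 genes lower in the atrium and 0 higher, with a median log2 difference of -0.60, 0.659-fold. Over all genes tested, 48.8% passed, 25.2% higher and 23.6% lower, with a median of 0.01. The exception was Birc5, at -0.38 (SE 0.16, adjusted p = 0.051), and the passing gene closest to 0 was the spindle pole kinase Aurka, at -0.28 (SE 0.10, adjusted p = 0.032), whose call was lost in 11 of 34 other settings. Mki67 stood at 186, 133, 183, 140 and 217 CPM in hyperoxic atria 1 to 5 and at 395, 353, 414, 363 and 366 CPM in hyperoxic ventricles 1, 2, 4, 5 and 6. These groups were far from overlapping, with a log2 difference of -1.14 (SE 0.12, adjusted p = 2.9e-08), 2.2-fold lower in the atrium. The kinetochore protein gene Cenpf, at -1.11 (SE 0.12, adjusted p = 9.4e-08), Espl1, at -1.04 (SE 0.21, adjusted p = 0.00027), Foxm1, at -0.94 (SE 0.19, adjusted p = 0.00028), Cdca8, at -0.83 (SE 0.09, adjusted p = 5.4e-08), and Ccna2, at -0.82 (SE 0.08, adjusted p = 1.6e-08), were also among the lower genes. Of the always named genes not yet given, Aurkb stood at -0.66 (SE 0.09, adjusted p = 1.9e-06), Ccnb1 at -0.61 (SE 0.08, adjusted p = 1.8e-06), Cdc20 at -0.60 (SE 0.09, adjusted p = 1e-05), Plk1 at -0.60 (SE 0.10, adjusted p = 4.3e-05), Top2a at -0.59 (SE 0.10, adjusted p = 6.2e-05) and Cdk1 at -0.34 (SE 0.12, adjusted p = 0.018). Cytokinesis genes passed in 7 of 7 cases, with Kif20b at -0.79 (SE 0.15, adjusted p = 0.00011), Racgap1 at -0.77 (SE 0.09, adjusted p = 1.3e-07), Ect2 at -0.54 (SE 0.12, adjusted p = 0.00067) and Anln at -0.52 (SE 0.14, adjusted p = 0.0045). The 2 chamber comparisons used different libraries. Whether a gene's chamber difference changed with oxygen is the test of the difference given further on.

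**Figure D2:**
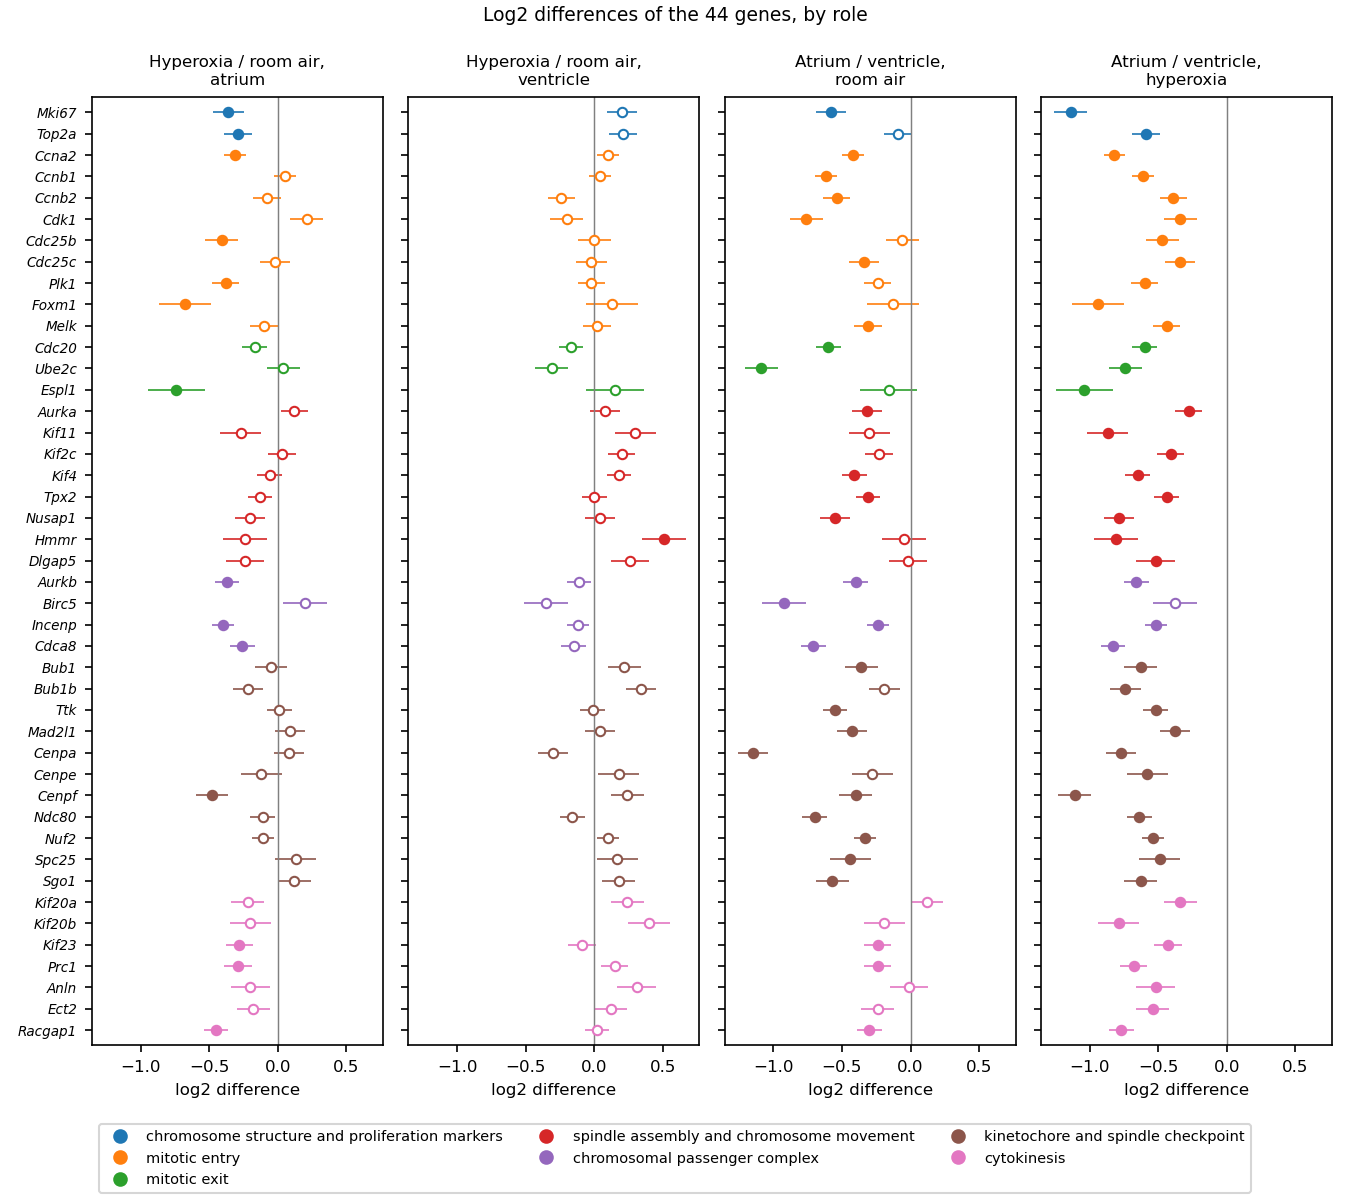
Log2 differences of the 44 genes, coloured by role, in the 4 comparisons between groups; bars are the SE, filled points passed at an adjusted p under 0.05 and open points did not. In the chamber comparisons on the right nearly all points lie below 0 (43 and 44 of 44), while the hyperoxia comparisons on the left straddle 0 with 14 and 1 filled points.

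Hyperoxia was next compared with room air within the atrium. Of the 44 genes 14 fell and 0 rose. The median log2 difference was -0.19, 0.878-fold, and 33 values lay below 0, 30 genes having missed the threshold. Over all genes tested, 43.9% passed, 19.7% higher and 24.2% lower, with a median of -0.06, so the 31.8% of the list that fell is not far from the share of genes in general. By role, the genes that fell were 2 of the 2 chromosome and proliferation markers, 3 of 4 in the passenger complex, 4 of 9 in mitotic entry, 3 of 7 in cytokinesis, 1 of 3 in mitotic exit, 1 of 11 at the kinetochore and checkpoint and 0 of 8 at the spindle.

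In cytokinesis, Racgap1 (chromosome 15, 99620496 to 99651656, minus strand) stood at 84.8, 73.5, 85.8, 89.1 and 72.2 CPM in room-air atria 1 to 5 and at 59.1, 53.3, 63.6, 57.5 and 63.5 CPM in hyperoxic atria 1 to 5. The groups did not overlap, and its log2 difference of -0.45 (SE 0.09, adjusted p = 0.00021) had the smallest p of the 44 genes in this comparison. Kif23, the kinesin that pairs with Racgap1, fell by 0.28 on the log2 scale (SE 0.10, adjusted p = 0.027), and Prc1, which bundles midzone microtubules, by 0.29 (SE 0.10, adjusted p = 0.018). Anln (-0.20, SE 0.14, adjusted p = 0.26) and Ect2 (-0.18, SE 0.12, adjusted p = 0.23) did not pass.

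In the passenger complex, Incenp (chromosome 19, 9872296 to 9899551, minus strand) stood at 56.5, 48.3, 54.4, 55 and 44 CPM in room-air atria 1 to 5 and at 41.3, 38, 41.6, 35.3 and 39 CPM in hyperoxic atria 1 to 5, again without overlap (log2 -0.40, SE 0.08, adjusted p = 0.00034). Aurkb, the kinase of the complex, stood at 31.9, 24.1, 31.1, 29.2 and 23.6 CPM and at 20.9, 20.3, 22.3, 21.3 and 23.2 CPM in the same order (log2 -0.37, SE 0.09, adjusted p = 0.0017). Its groups only just parted, at 23.6 and 23.2 CPM. Cdca8 fell by 0.26 (SE 0.09, adjusted p = 0.018), whereas Birc5 stood at 0.20 (SE 0.16, adjusted p = 0.32). Its values of 44.8, 68.5, 46.8, 74.3 and 44.9 CPM in hyperoxic atria 1 to 5 were highest in the 2 libraries with steep length slopes, numbers 2 and 4.

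Foxm1 (chromosome 6, 128362967 to 128376146, plus strand) and Espl1 (chromosome 15, 102296266 to 102324357, plus strand) had the most negative differences. Foxm1 stood at 47.8, 44.1, 51.1, 43.7 and 39 CPM in room-air atria 1 to 5 and at 36.4, 19.2, 32.9, 15.6 and 36.5 CPM in hyperoxic atria 1 to 5 (log2 -0.68, SE 0.19, adjusted p = 0.006). It shares exonic bases with Tex52 and Gm44596 on the same strand. Espl1, which cuts the cohesin rings between sister chromatids, stood at 23.4, 23.6, 26.2, 21.4 and 17.9 CPM and at 16.2, 8.78, 17.3, 8.24 and 16.9 CPM (log2 -0.74, SE 0.21, adjusted p = 0.0068). Neither gene's groups overlapped, and in both the hyperoxic atria 2 and 4 were by far the lowest. Without the libraries with steep slopes the differences were -0.35 for Foxm1 (adjusted p = 0.00444) and -0.42 for Espl1 (adjusted p = 0.0259).

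Of the other entry genes, Plk1 fell by 0.38 (SE 0.10, adjusted p = 0.0045), Ccna2 by 0.31 (SE 0.08, adjusted p = 0.0035) and the phosphatase Cdc25b, which activates Cdk1, by 0.41 (SE 0.12, adjusted p = 0.007). Cdk1 itself stood at 0.21 (SE 0.12, adjusted p = 0.15) and Ccnb1 at 0.05 (SE 0.08, adjusted p = 0.64). Mki67, at 224, 216, 252, 225 and 187 CPM in room-air atria 1 to 5 against the hyperoxic values given above, fell by 0.36 (SE 0.11, adjusted p = 0.013), and Top2a fell by 0.29 (SE 0.10, adjusted p = 0.03), a call that was lost in 12 of 33 other settings. The groups overlapped for both, with hyperoxic atrium 5 inside the room-air range. Cenpf, at -0.48 (SE 0.12, adjusted p = 0.003), was the one kinetochore gene to pass, and Cdc20, at -0.17 (SE 0.09, adjusted p = 0.13), did not pass.

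With this slope in the fit 11 genes passed, all lower. They shared 8 with the 14, namely Ccna2, Plk1, Foxm1, Aurkb, Incenp, Cdca8, Cenpf and Racgap1. Mki67 (-0.18, adjusted p = 0.118), Top2a (-0.12, adjusted p = 0.284), Espl1 (-0.36, adjusted p = 0.0966), Cdc25b, Kif23 and Prc1 were lost. Birc5, Cdc20 and Ndc80 were gained. Without the 3 libraries with steep slopes 9 passed, and Racgap1 (-0.38, adjusted p = 0.00134) and Incenp (-0.35, adjusted p = 0.0023) kept close to their values. Of the 7 cytokinesis genes, Racgap1 alone passed in either of these settings.

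**Figure D3:**
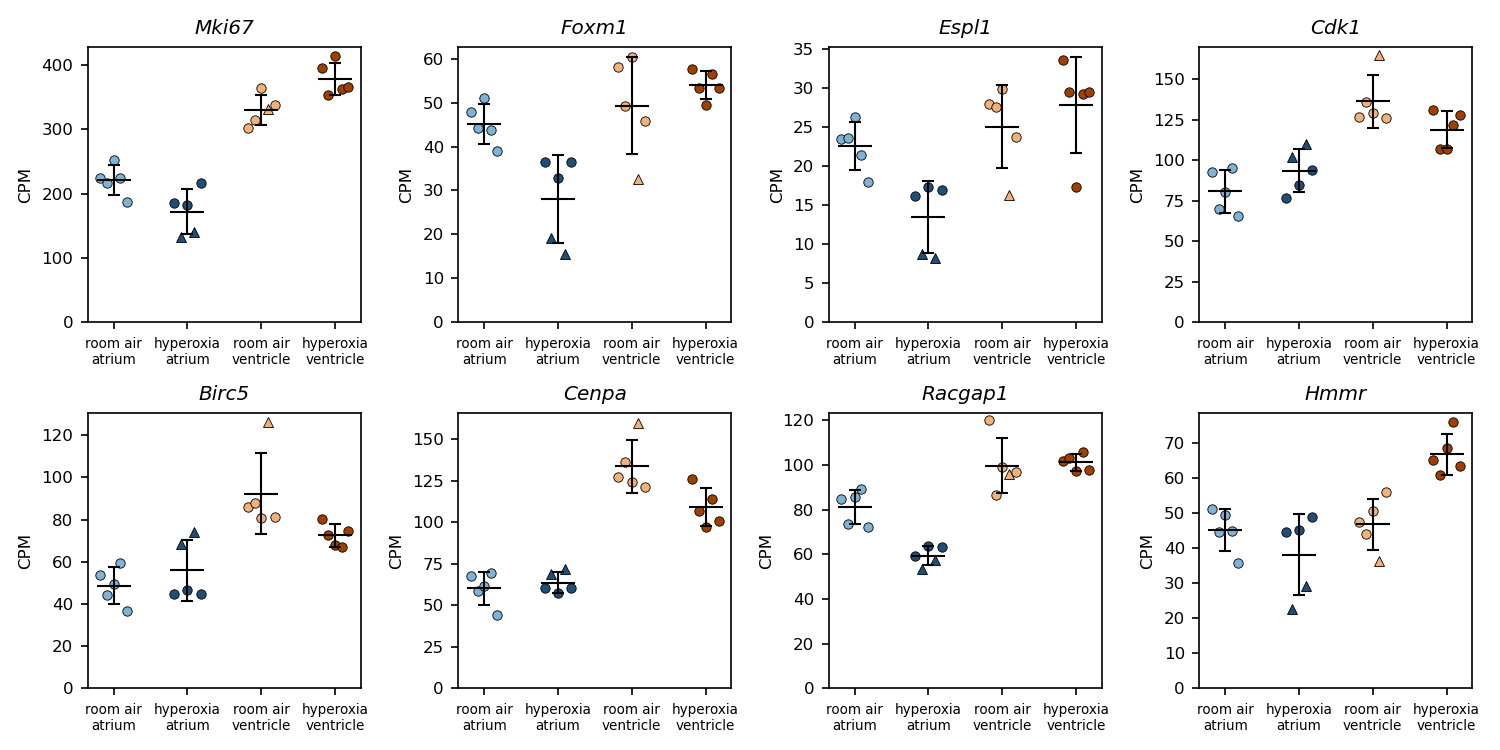
CPM of 8 of the genes in each library of the 4 groups, with the mean and SD (n = 5) as bars; triangles mark the 3 libraries with a length slope below -0.2. Racgap1, Foxm1 and Espl1 do not overlap between room-air and hyperoxic atria, the triangles are the lowest points for Foxm1 and high points for Birc5 and Cdk1, and Hmmr parts the ventricles by oxygen.

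In the ventricle, hyperoxia called 1 of 44 genes higher and 0 lower, with a median log2 difference of 0.09 and 29 values above 0. Over all genes tested, 10.9% passed, 5.64% higher and 5.28% lower. The gene was Hmmr, which encodes a spindle protein (chromosome 11, 40701395 to 40733422, minus strand). It stood at 47.5, 43.9, 50.5, 36.4 and 55.9 CPM in room-air ventricles 1 to 5 and at 65.1, 60.9, 68.7, 75.9 and 63.5 CPM in hyperoxic ventricles 1, 2, 4, 5 and 6 (log2 0.51, SE 0.16, adjusted p = 0.047). The groups did not overlap, yet the call was lost in 21 of 34 other settings, among them the fit with the slope covariate (0.21, adjusted p = 0.186), while without the libraries with steep slopes it kept its side of the threshold (0.44, adjusted p = 0.00272).

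The other roles showed no passing gene in the ventricle. Bub1b, at 0.34 (SE 0.11, adjusted p = 0.055), and Kif20b, at 0.40 (SE 0.15, adjusted p = 0.071), came next above 0 by p, and neither overlapped between the groups. Below 0 were Cenpa, at -0.30 (SE 0.11, adjusted p = 0.083), Ube2c, at -0.31 (SE 0.12, adjusted p = 0.096), and Birc5, at -0.35 (SE 0.16, adjusted p = 0.14). Of the genes that had fallen in the atrium, Mki67 stood at 0.20 (SE 0.11, adjusted p = 0.25), Top2a at 0.21 (SE 0.10, adjusted p = 0.17), Racgap1 at 0.02 (SE 0.09, adjusted p = 0.9), Foxm1 at 0.13 (SE 0.19, adjusted p = 0.66), Aurkb at -0.11 (SE 0.09, adjusted p = 0.41), Plk1 at -0.02 (SE 0.10, adjusted p = 0.91) and Espl1 at 0.15 (SE 0.21, adjusted p = 0.66). Cdk1 (-0.20, SE 0.12, adjusted p = 0.25), Ccnb1 (0.04, SE 0.08, adjusted p = 0.75), Cdc20 (-0.17, SE 0.09, adjusted p = 0.2), Ect2 (0.12, SE 0.12, adjusted p = 0.5) and Anln (0.31, SE 0.14, adjusted p = 0.15) did not pass.

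Whether the chambers responded differently was tested as the atrial minus the ventricular log2 difference. It was negative and passed for 14 of 44 genes and positive for 0, with a median of -0.25. Over all genes tested, 36.5% passed, 17.0% higher and 19.5% lower, with a median of -0.06. The 14 were 2 of the 2 chromosome and proliferation markers, 4 of 7 cytokinesis genes, 3 of 8 spindle genes, 2 of 9 in mitotic entry, 2 of 11 at the kinetochore, 1 of 3 in mitotic exit and 0 of 4 in the passenger complex. They included Mki67 at -0.56 (SE 0.16, adjusted p = 0.01), Top2a at -0.50 (SE 0.15, adjusted p = 0.012), Cenpf at -0.71 (SE 0.17, adjusted p = 0.0031), Racgap1 at -0.47 (SE 0.12, adjusted p = 0.0051), Foxm1 at -0.82 (SE 0.27, adjusted p = 0.022), Espl1 at -0.88 (SE 0.29, adjusted p = 0.023), Ccna2 at -0.40 (SE 0.11, adjusted p = 0.0086), Bub1b at -0.55 (SE 0.16, adjusted p = 0.01) and Hmmr at -0.76 (SE 0.23, adjusted p = 0.015). Birc5 (0.55, SE 0.22, adjusted p = 0.056) and Cdk1 (0.41, SE 0.16, adjusted p = 0.054) lay on the other side of 0 and missed the threshold, and with RLE or upper-quartile scaling both passed, as did Cenpa, all positive. Of the always named genes, Anln (-0.51, SE 0.20, adjusted p = 0.053), Plk1 (-0.36, SE 0.15, adjusted p = 0.055), Ect2 (-0.30, SE 0.17, adjusted p = 0.16), Aurkb (-0.26, SE 0.13, adjusted p = 0.11) and Ccnb1 (0.01, SE 0.11, adjusted p = 0.96) did not pass, and Cdc20 stood at 0.00 (SE 0.13).

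These differences between responses ran with exon length. Across the 44 genes the Spearman correlation of the log2 difference with exon length was -0.49 for this comparison, and -0.49 across 11144 genes of at least 5 CPM; genes of 1 library share its length slope, so this is a description. The median was -0.45 in the 22 longer genes and -0.13 in the 22 shorter, and 11 of the 14 passing genes were among the longer. The mean length slope itself differed by oxygen in opposite directions in the chambers. It was 0.0858 in room-air atria, -0.0858 in hyperoxic atria, -0.0689 in room-air ventricles and 0.0689 in hyperoxic ventricles. Each slope is taken against the mean of its own chamber, so the means of a chamber mirror each other by construction. When this slope was added to the fit 2 of the 44 passed, Ccna2 (-0.36, SE 0.13, adjusted p = 0.0499) and the kinetochore gene Spc25 (-0.58, SE 0.19, adjusted p = 0.0411). Mki67 then stood at -0.21 (adjusted p = 0.358), Cenpf at -0.27 (adjusted p = 0.189), Foxm1 at -0.06 (adjusted p = 0.873) and Racgap1 at -0.38 (adjusted p = 0.0562). Without the 3 libraries with steep slopes 8 passed, all among the 14, and without hyperoxic ventricle 5 there were 8, of which 2, Cdk1 and Cenpa, were positive.

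**Figure D4:**
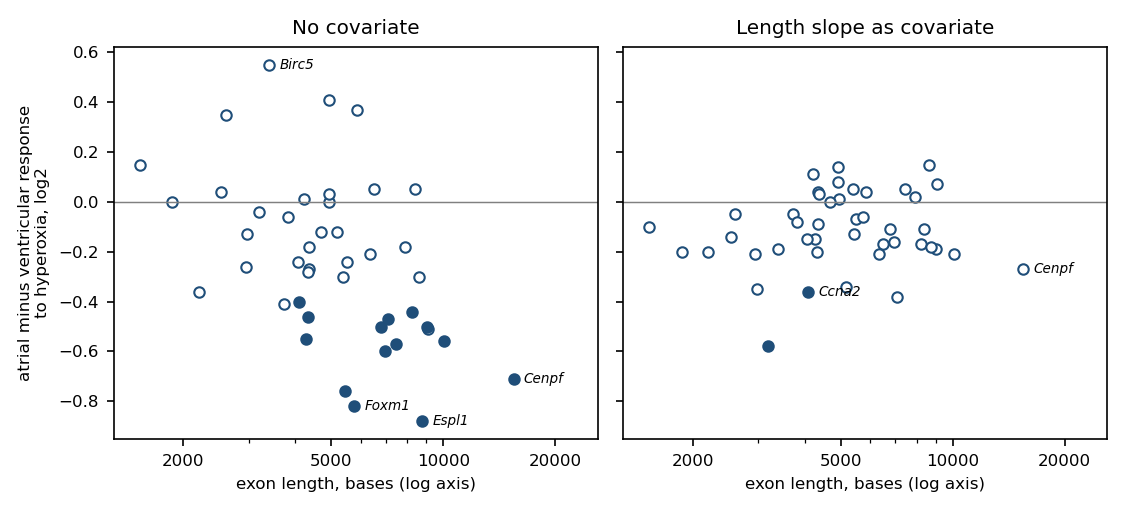
Atrial minus ventricular response to hyperoxia (log2) against exon length in bases (log axis) for the 44 genes, without a covariate (left) and with the length slope of each library as a covariate (right); filled points passed at an adjusted p under 0.05. On the left the filled points are mostly long genes and 14 in number, while on the right 2 points are filled, Ccna2 and Spc25.

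In the other comparisons the same correlation over the 44 genes and over the 11144 genes was -0.34 and -0.33 for hyperoxia in the atrium, 0.45 and 0.46 for hyperoxia in the ventricle, 0.28 and 0.32 between chambers in room air, and -0.33 and -0.18 between chambers in hyperoxia. The chamber differences held in both length classes, with medians of -0.38 for shorter and -0.29 for longer genes in room air and of -0.52 and -0.67 in hyperoxia.

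The other genes of the division machinery are given by list, to be read against the 19.7% of all genes that rose and the 24.2% that fell in the hyperoxic atrium. Of 18 condensin and cohesin genes, which compact and tether chromatids, 6 fell and 0 rose in the hyperoxic atrium, among them the condensin subunit Ncapd2 (-0.58, SE 0.10, adjusted p = 4.7e-05) and the cohesin subunit Rad21 (-0.52, SE 0.11, adjusted p = 0.00055). Of 25 further spindle and kinesin genes 3 fell, with Numa1, which anchors spindle poles, at -0.86 (SE 0.16, adjusted p = 0.00017), and 3 rose, with Haus8 of the augmin complex at 0.68 (SE 0.12, adjusted p = 0.00014). Of 32 further kinetochore genes 3 rose and 3 fell, of 24 further cytokinesis genes 2 rose and 6 fell, of 21 further entry genes 2 rose and 0 fell, and of 15 subunits of the anaphase-promoting complex 4 rose and 1 fell. The largest shares were the 33.3% of condensin and cohesin genes that fell and the 26.7% of anaphase-promoting complex subunits that rose. Neither is far from the share of all genes, 24.2% and 19.7%. The counts of these lists are those of the fit without covariates. Gtse1, a microtubule-binding regulator of p53, rose by 0.65 (SE 0.10, adjusted p = 1.6e-05).

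DNA replication precedes mitosis. Of 37 replication genes 10 rose in the hyperoxic ventricle and 0 fell (27% higher, against 5.64% of all genes), with cyclin Ccne2, which starts S phase, at 0.77 (SE 0.17, adjusted p = 0.0077), the helicase subunit Mcm2 at 0.48 (SE 0.09, adjusted p = 0.0039) and Ccne1 at 0.43 (SE 0.11, adjusted p = 0.017). In the atrium 2 of the 37 rose (5.41%, against 19.7% of all genes) and 0 fell (against 24.2%). These counts are those of the fit without covariates. Calls in the ventricle over all genes moved widely with the setting, as given further on. Elsewhere in the ventricle 2 of 18 condensin and cohesin genes rose, Smc3 (0.40, SE 0.11, adjusted p = 0.023) and Esco2 (0.50, SE 0.14, adjusted p = 0.029), as did Lin9 of the MuvB complex (0.60, SE 0.12, adjusted p = 0.0055) and the kinetochore scaffold Knl1 (0.69, SE 0.21, adjusted p = 0.039). Between the chambers in room air 21 of 37 replication genes, 19 of 32 further kinetochore genes and 12 of 25 further spindle genes were lower in the atrium (56.8%, 59.4% and 48%, against 26.3% of all genes), and 0, 1 and 1 were higher. In hyperoxia 27, 22 and 20 were lower (73%, 68.8% and 80%, against 23.6%), and 0, 1 and 0 were higher.

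Markers of cell types of the heart differed between the same groups. The summed level of 7 endothelial markers was 996 to 1180 CPM in room-air atria, 625 to 826 CPM in hyperoxic atria, 1860 to 2070 CPM in room-air ventricles and 1420 to 1630 CPM in hyperoxic ventricles, and 7 of 7 fell with hyperoxia in the atrium and 4 of 7 in the ventricle. The summed level of 7 fibroblast markers was 5580 to 6600, 2810 to 4030, 1970 to 3040 and 1800 to 2400 CPM in the same order, and 6 of 7 fell with hyperoxia in the atrium while 1 rose. Of all genes tested, 24.2% fell and 19.7% rose with hyperoxia in the atrium, and 5.28% fell in the ventricle. In room air 5 of 7 endothelial markers were lower and 7 of 7 fibroblast markers higher in the atrium than in the ventricle, against 26.3% and 28.7% of all genes. Smooth muscle and pericyte markers (5 genes) summed to 853 to 979 CPM in room-air atria and 639 to 828 CPM in hyperoxic atria, but did not move together. The pericyte gene Rgs5 averaged 388 and 101 CPM, Pdgfrb 179 and 105 CPM, Kcnj8 8.65 and 5.22 CPM and Myh11 5.76 and 1.55 CPM. Acta2 went the other way, at 335 and 540 CPM. The sums of 6 macrophage markers, 144 to 154 and 175 to 228 CPM, and of 4 epicardial markers, 227 to 361 and 385 to 423 CPM, lay higher in hyperoxic atria without overlap. Among the macrophage markers Lyve1 went the other way, at 20.9 and 17.2 CPM on average, and Csf1r differed little, at 44.7 and 46.9 CPM. The other macrophage markers and all epicardial markers averaged higher. For 7 cardiomyocyte markers the sum was 26700 to 33600, 23500 to 36100, 39600 to 54400 and 43900 to 48200 CPM, in the order used for the endothelial markers. These did not move together either. Myh6, Ryr2, Ttn and Pln averaged lower in hyperoxic than in room-air atria, and Tnnt2, Actc1 and Tnni3 higher. The 8 thymocyte and T cell markers summed to at most 11.4 CPM in any library, and 6 erythroid markers to 30.3 to 225 CPM over all libraries. The part of cell composition in the differences of the 44 genes was not tested. Cdkn1a, the p53 target that inhibits cyclin-dependent kinases, averaged 45.4 ± 3.17 CPM in room-air atria, 238 ± 24 CPM in hyperoxic atria, 70.9 ± 6.3 CPM in ventricles kept in room air and 68.6 ± 11.9 CPM in those from hyperoxia (SD, n = 5), and its part was not tested either.

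The excess of Y-linked over Xist reads and the oxygen level cannot be told apart in full, since every room-air library had that excess. With these reads as a covariate 18 genes passed in the hyperoxic atrium, all lower, of which 12 were among the 14, and 29 and 43 passed in the chamber comparisons. This covariate rests mostly on the hyperoxic libraries. Among the hyperoxic atria only number 2 had the excess, and it also had the steepest length slope, -0.29. In the atrium this fit cannot fully tell the 2 apart, so nothing is concluded from it.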

How the data were processed

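Polyadenylated RNA of 20 libraries in 4 groups of 5 was measured. Each deposited file lists, by gene symbol, whole-number counts of reads that the authors left without normalization. The submitters' processing notes name the build GRCm38.p6 and the tools STAR 2.7.6a, Salmon 1.3.0, featureCounts, Subread 2.0.1 and fastp 0.20.1. A stranded mRNA kit was used per the labels' protocols. The strand setting and annotation release of the counting are not given in the sources used here. For RNA extraction the sample labels name a Direct-zol kit and the series text an RNeasy kit.

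The test was edgeR 4.0.16 under R 4.3.3, with filterByExpr, TMM scaling and a robust quasi-likelihood fit of all 20 libraries with 1 coefficient per group. Each of the 5 comparisons was a contrast, adjusted by Benjamini-Hochberg over 16598 genes at 0.05. Each SE comes from the log2 difference and its F value (absolute difference over root F), and CPM use TMM-scaled sizes. No 2 libraries of a group agreed within sampling noise (smallest chi-square per degree of freedom 12.25). The test was checked on simulated counts, where the recovery of changed genes first required was narrowly missed and the requirement was then lowered. The p-values set each difference against the spread between mice within groups, with 1 estimate per gene shared by the 4 groups. A gene that varies much in 1 group therefore has a wider SE in comparisons without that group too. Foxm1 is a case, with a coefficient of variation of 35.5% in hyperoxic atria and 5.89% in hyperoxic ventricles. Counting error is part of the spread between mice, more so for genes with low counts, and its share was not measured.

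Exon lengths and positions, matched by symbol, are GENCODE's on GRCm38. An exon length is the union of all annotated exons of a gene and can exceed the length of its main transcript. Of the 44 genes, 11 share exonic bases with a gene on the other strand and 2 with one on the same strand. The length slope is that of log2(CPM + 0.5), minus its chamber mean, on log2 exon length over 11144 genes. Full values are given for 11 genes always named (Mki67, Top2a, Cdk1, Ccnb1, Plk1, Aurkb, Foxm1, Cdc20, Anln, Ect2 and Racgap1) and, in each comparison, for the 4 with the smallest p and those with the largest and smallest log2 difference; other genes are named as examples chosen after their values were seen. The 44 genes, the role, pathway and marker lists and the tests were chosen with earlier results of these data known. Alternatives were RLE and upper-quartile scaling, other filters, DESeq2 1.42.0, limma 3.58.1 (voom), smaller fits, covariates, blocks and libraries left out. A sign change of a value that passed in neither setting is not counted as a reversal.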

Additional observations from a re-analysis of the deposited data

Results flagged for a closer look

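In 10 of 104 groups of 5 libraries the highest or lowest library lay far from the other 4 (gap over range above 0.71); chance gives about 1 in 20. Room-air ventricle 4, 1 of the 3 libraries with a steep length slope, was such a library for Cdk1 (165 CPM), Birc5 (126 CPM) and Aurka (41 CPM), all on the high side, and for Plk1 (32.9 CPM), Ect2 (32.4 CPM) and Bub1b (42.6 CPM), all on the low side. Hyperoxic atrium 4, also with a steep slope, was low for Plk1 (20.3 CPM). Hyperoxic ventricle 4 was low for Espl1 (17.3 CPM) and high for Kif20b (41.9 CPM), and hyperoxic ventricle 2 was low for Cdkn1a (48 CPM).

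For 8 of the genes named by rule in that comparison the response to hyperoxia differed between the chambers by the test of the difference itself (atrial minus ventricular log2 difference, edgeR). The values were -0.56 for Mki67, -0.50 for Top2a, -0.82 for Foxm1, -0.47 for Racgap1, -0.71 for Cenpf, -0.40 for Ccna2, -0.55 for Bub1b and -0.88 for Espl1. Cenpf, Ccna2, Bub1b and Espl1 were named for their p or log2 difference in this same comparison, so their passing is not a separate result. Hmmr, named by rule in another comparison, and 5 more of the 44 also passed. Of the 8, Ccna2 alone passed with the length slope as a covariate.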

How the results depend on the processing

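The genes called between chambers were lower in every setting run. With each library left out in turn 25 to 35 genes passed in room air and 41 to 44 in hyperoxia, and with the length slope as a covariate 39 in room air. In the atrium leaving out a library gave 10 to 18 genes, all lower. The count was 8 in a fit of only the libraries compared, 9 without the 3 libraries with steep slopes and 9 with length slope and Y-linked reads as covariates. Keeping only mostly Y-linked libraries gave 22 there and 35 between chambers in hyperoxia, but that leaves hyperoxic atrium 2, the library with the steepest slope, alone in its group with its spread assumed to be that of the others, so it says nothing on stability. These last 2 settings were chosen after seeing the data. In the ventricle the 1 call became 0 with RLE scaling, upper-quartile scaling, no filter, Y-linked reads, ventricular Myl7, both covariates or only mostly Y-linked libraries, 2 with DESeq2 or voom, and 4 in a fit of only the libraries compared or without steep slopes. Leaving out a library gave 0 to 3 there, and without hyperoxic ventricle 1 the 1 call was Ube2c, lower. For the difference between responses the count was 2 with the length slope, 8 without steep slopes and 3 with both covariates, and 8 (without hyperoxic ventricle 5) to 19 with a library left out; RLE scaling gave 12 negative and 3 positive genes, upper-quartile scaling and a filter at 1 CPM 11 and 3, and DESeq2 13 and 3. The filter at 1 CPM also called Cdk1 higher in the hyperoxic atrium. Why these counts moved was not tested, beyond the smaller numbers of libraries. Over all genes the ventricle's 1813 calls ranged from 115 (ventricular Myl7) to 3305 (without steep slopes), the 6060 for the difference fell to 2629 with the length slope, and the atrium's 7291 to 4687 with both covariates. Of 2570 values of named genes under other settings, 2396 kept their side of the threshold (uncalled values that changed sign included), 77 lost a call, 97 gained one and 0 reversed while called. The 2570 pool results that were called in the main fit with results that were not. They therefore do not measure how stable the calls are.

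In none of the 4 pairings did every same-numbered pair correlate over 0.1, so the main fit did not take the numbers as pairs. The room-air chambers came closest, at -0.06 to 0.57 with 4 of 5 over 0.1 and the own number best for 3. Between hyperoxic chambers the range was 0.01 to 0.25 (1 of 4, own best for 1), between oxygen levels -0.34 to 0.65 in the atrium (3 of 5, own best for 2) and -0.1 to 0.15 in the ventricle (1 of 4, own best for 3). With the number as a replicate block, 14 genes passed in the hyperoxic atrium, 2 in the ventricle, 20 for the difference (18 negative, 2 positive), 30 between chambers in room air and 43 in hyperoxia. Taking same-numbered chambers as 1 mouse gave 20, 30 and 41 for the last 3. The rule of 0.1 cannot exclude that same-numbered chambers came from 1 mouse. Hyperoxic atria and ventricles 1, 4 and 5 all had more Xist than Y-linked reads, and both of number 2 had the reverse. All room-air libraries had more Y-linked reads, so they cannot be compared in this way.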
